A study of Mus musculus with 16 samples.

Results

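The genes described here encode 4 transcriptional repressors of lymphoid cells: Bach1, Bach2, Bcl6 and Bcl11a. They were found through the gene symbol or description of each array probe, which gave 6 probes for the 4 genes among 41174 probes. After a filter on dim probes 5 of the 6 were kept, and each gene was represented by its brightest kept probe among 22184 genes and unnamed transcripts tested. Expression was measured in cells of wild-type BALB/c mice, with no transgene or treatment named in the labels. Bone marrow sorts each pooled 16 adult female mice, and fetal liver sorts each used the embryos of 1 litter at day 16 of gestation, 8 on average. The labels give 4 sorts per tissue, each yielding a fraction A (Fr.A) sample, the pre-pro-B stage of the Hardy scheme, and a fraction B/C (Fr.B/C) sample, the pro-B stage that follows. They do not say which sort each array holds. The 2 fractions of the 2 tissues made 4 groups of 4 arrays each, and each array set a sample against the same reference RNA of 6 cell lines. A level below is the log2 ratio of sample over reference, so levels can be compared between groups for 1 probe but not between genes.

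BACH1 and BACH2 are leucine zipper proteins that pair with small Maf proteins and repress genes that carry Maf recognition elements. Heme releases this repression, and BACH2 is known in B cells for holding back the plasma cell and myeloid programmes. BCL6 is a zinc finger repressor that recruits corepressors such as BCOR and NCOR1, is best known in the germinal centre, and in pre-B cells is held low by interleukin 7 through STAT5. BCL11A is a zinc finger repressor that B-cell development requires and that silences embryonic and fetal globin genes in erythroid cells.

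The windows from 250 bases before to 50 bases after the annotated starts (RefSeq, GRCm38.p6) are shown for Bcl6 and Bach2, the pair of genes whose levels differed most between groups. All are printed 5' to 3' along the gene. Capitals mark every match, on either strand, to the STAT core TTCNNNGAA, the Maf and AP-1 core TGANTCA, the E-box CACGTG or the FOXO core TGTTTAC. No matches overlapped.
Bcl6 chr16:23981234-23981533 (minus strand): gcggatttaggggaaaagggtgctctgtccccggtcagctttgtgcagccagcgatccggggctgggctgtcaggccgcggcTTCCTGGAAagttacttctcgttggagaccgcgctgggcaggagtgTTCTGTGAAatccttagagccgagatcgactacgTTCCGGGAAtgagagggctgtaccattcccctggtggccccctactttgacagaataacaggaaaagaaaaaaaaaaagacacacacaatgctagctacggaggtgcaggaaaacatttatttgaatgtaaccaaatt
Bcl6 chr16:23988803-23989102 (minus strand): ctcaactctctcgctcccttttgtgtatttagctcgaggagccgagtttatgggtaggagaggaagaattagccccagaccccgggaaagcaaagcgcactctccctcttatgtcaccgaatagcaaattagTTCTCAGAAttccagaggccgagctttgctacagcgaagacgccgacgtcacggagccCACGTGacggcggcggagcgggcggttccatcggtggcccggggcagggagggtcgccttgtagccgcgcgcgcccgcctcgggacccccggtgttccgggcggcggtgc
Bach2 chr4:32417185-32417484 (plus strand): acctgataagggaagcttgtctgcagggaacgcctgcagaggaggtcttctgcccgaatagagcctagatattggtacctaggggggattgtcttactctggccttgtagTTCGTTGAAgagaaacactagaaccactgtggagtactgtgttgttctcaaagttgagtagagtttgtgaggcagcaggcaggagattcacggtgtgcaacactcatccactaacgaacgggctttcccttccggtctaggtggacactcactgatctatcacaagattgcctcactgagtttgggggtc
The first Bcl6 window held 3 matches to the STAT core, at bases 83, 129 and 163. The second Bcl6 window held 1 STAT core match and 1 E-box, and the Bach2 window 1 STAT core match. The single window of Bcl11a held 1 STAT core match and that of Bach1 none of the 4 motifs. Of 32851 promoter windows of this length, 8.3% held the STAT core, 7.81% the Maf and AP-1 core, 7.15% the E-box and 3.65% the FOXO core. These matches describe letters in the windows. No binding was measured.

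The array files place the probes on a mouse build that they do not state, so the positions cannot be set against the windows above. The Bach1 probe lies on chromosome 16 at 86886890 to 86886949 and the Bcl6 probe on chromosome 16 at 22748894 to 22748953. The kept Bach2 probe lies on chromosome 4 at 32859885 to 32859944, and the Bcl11a probes on chromosome 11 at 24067659 to 24067718 (the brighter) and 24067928 to 24067987. Their exon or UTR was not annotated here.

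Between 52.6% and 68.3% of probes were well above background on each array. Early B-lineage transcripts were detected: all 19 measured genes of 21 listed markers were well above background on at least 1 array of every group. Measured genes had already passed the filter on dim probes, and all 9 measured T-lineage markers met the same criterion. It therefore does not identify the cells. Pax5 and Igll1 of the early B-lineage list were not among the genes tested. The list's mean level ran from 0.818 to 1.03 in bone marrow Fr.A, 1.47 to 1.76 in bone marrow Fr.B/C, 0.217 to 0.301 in fetal liver Fr.A and 0.549 to 0.666 in fetal liver Fr.B/C. Its gene Dntt averaged 3.43 and 3.08 in bone marrow Fr.A and Fr.B/C (saturated on 3 and 4 arrays) and -5.28 and -5.95 in fetal liver. Dntt therefore widens the gap between the tissue means. Vpreb1, Vpreb3 and Cd79b were saturated on all 4 Fr.B/C arrays of each tissue, and Cd93 on 3 bone marrow Fr.A arrays. Their levels there may be understated. Of the 19 genes 5 were lower and 1 higher in fetal liver Fr.A, and 9 lower and 1 higher in Fr.B/C (limma, adjusted p under 0.05). Markers of other cells were detected too, and their values are given beside the results they move with. In their deviations from group means, arrays 1 and 2 of a group, and arrays 3 and 4, mostly moved together. The median r was 0.599 over 8 pairs of arrays, and the lowest -0.05. Arrays 1 and 2 moved opposite to arrays 3 and 4 (median r = -0.789 over 16 pairs). Deviations within a group cancel out, so part of this negative value is fixed in advance. The labels do not say what arrays 1 and 2 share. In fetal liver, arrays 1 and 2 of both fractions shared a scan day, and arrays 3 and 4 shared another. The scans of the 2 tissues fell on different days, so tissue and scan day cannot be told apart.

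Below, "passed" means an adjusted p under 0.05 by limma. The shares of all genes include unnamed transcripts: 13846 of the 22184 tested had a symbol, while every listed gene has one. The lists were chosen with earlier results of these data known, so an excess over these shares is descriptive only. In Fr.A, 12.2% of all genes were higher and 17.1% lower in fetal liver. In Fr.B/C, 13.9% were higher and 14.8% lower. From Fr.A to Fr.B/C, 13.5% rose and 18.7% fell in bone marrow, and 9.96% rose and 12.7% fell in fetal liver. Centring arrays on their median in place of loess shifted these splits: the share of passing genes that were higher went from 41.7% to 22.9% in the Fr.A tissue comparison, from 48.5% to 20.4% in Fr.B/C, and from 43.9% to 31.6% for the fetal liver step. The median difference over all genes was -0.01 and 0.01 for the tissue comparisons in Fr.A and Fr.B/C.

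Bach2 and Bach1 were lower in fetal liver than in bone marrow at both stages, and Bcl6 was lower in fetal liver at the Fr.B/C stage. That is 2 of the 4 genes lower in Fr.A, against 17.1% of all genes, and 3 of 4 in Fr.B/C, against 14.8%. In bone marrow Bcl6 and Bach2 rose from Fr.A to Fr.B/C, 2 of 4 against 13.5% of all genes. Of all genes 32.2% passed at that bone marrow step in either direction, and 29.5% had fractions that did not overlap, as Bcl6 and Bach2 did. In fetal liver none of the 4 passed in either direction by limma, and none had an unadjusted p under 0.05, against 22.7% of all genes that passed. Bcl11a passed in no comparison on its brightest probe. In these bulk samples fewer cells of a type and less RNA per cell cannot be told apart.

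**Figure D1:**
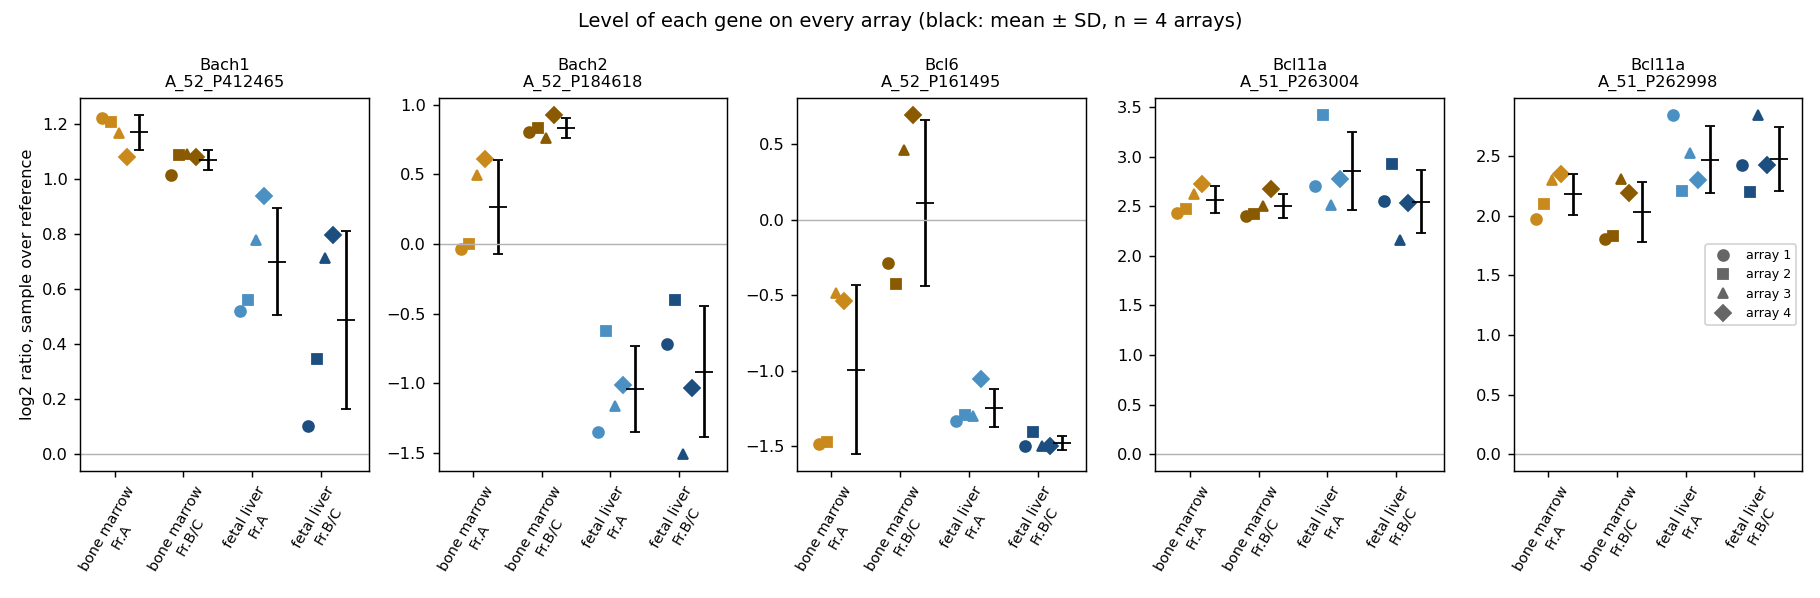
Log2 ratio of sample over reference (y axis) on each of the 16 arrays, by group, for the 5 kept probes of the 4 genes, with the y axis scaled separately in each panel. Black marks give mean ± SD of the 4 arrays of a group. Bach2 lies at -0.04 or above on all bone marrow arrays and at -0.41 or below on all fetal liver arrays, while the groups of both Bcl11a probes overlap between tissues.

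Bach2, whose product restrains plasma cell and myeloid genes in B cells, showed the widest tissue difference of the 4 genes. Its levels on arrays 1 to 4 were 0.80, 0.83, 0.76 and 0.93 in bone marrow Fr.B/C. In bone marrow Fr.A they were -0.04, 0.00, 0.50 and 0.61. In fetal liver they were -1.35, -0.62, -1.16 and -1.01 in Fr.A and -0.72, -0.41, -1.51 and -1.04 in Fr.B/C. Every fetal liver array was below every bone marrow array at either stage, a separation that 26.1% of all genes showed for Fr.A and 29.6% for Fr.B/C. The group means were in the order bone marrow Fr.B/C (0.83 ± 0.07, SD, n = 4), bone marrow Fr.A (0.27 ± 0.34), fetal liver Fr.B/C (-0.92 ± 0.47) and fetal liver Fr.A (-1.04 ± 0.31). The last pair did not differ beyond their spread. Signals of the probe in the sample channel ran from 1102 to 8914 (background-subtracted intensity).

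Fetal liver was 2.47-fold lower than bone marrow in Fr.A (log2 difference -1.31 ± 0.20, SE; adjusted p = 0.000113). It was 3.36-fold lower in Fr.B/C (-1.75 ± 0.20, adjusted p = 7.36e-06). Both calls held with arrays 1 and 2, and 3 and 4, averaged to 1 value each (adjusted p = 0.0214 and 0.00828). They held with any 1 array left out, with differences of -1.45 to -1.18 in Fr.A and -1.89 to -1.58 in Fr.B/C. A further Bach2 probe was well above background on 1 of the 16 arrays and was not tested.

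From Fr.A to Fr.B/C, Bach2 rose 1.48-fold in bone marrow (0.56 ± 0.20, adjusted p = 0.0376). Replicate numbers 1 and 2 each gave a step of 0.84 and numbers 3 and 4 steps of 0.26 and 0.31, so the rise was larger in the first pair of arrays. Within the 3 scan days that held both fractions it was 0.85, 0.26 and 0.31. The call was lost with array pairs averaged (adjusted p = 0.217). It was also lost without bone marrow Fr.A array 1 (0.50, adjusted p = 0.0995) or 2 (0.42, adjusted p = 0.128), and without Fr.B/C array 1 (0.53, adjusted p = 0.0903), 2 (0.61, adjusted p = 0.0512), 3 (0.54, adjusted p = 0.0810) or 4 (0.57, adjusted p = 0.0661). In fetal liver the steps were 0.63, 0.22, -0.35 and -0.03 (0.12 ± 0.20, adjusted p = 0.740), with no common direction. The difference between the steps of the tissues did not pass (interaction -0.44 ± 0.28, adjusted p = 0.404).

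Bach1, the more widely expressed relative and the repressor of the heme oxygenase gene, differed less and in the same direction. Bone marrow levels lay close together, at 1.22, 1.21, 1.17 and 1.08 in Fr.A and 1.02, 1.09, 1.09 and 1.08 in Fr.B/C. Fetal liver levels were 0.52, 0.56, 0.78 and 0.94 in Fr.A and 0.10, 0.35, 0.71 and 0.80 in Fr.B/C. All fetal liver arrays lay below all bone marrow arrays, and within fetal liver arrays 1 and 2 lay below arrays 3 and 4. The means, 1.17 ± 0.06 in bone marrow Fr.A, 1.07 ± 0.04 in bone marrow Fr.B/C, 0.70 ± 0.20 in fetal liver Fr.A and 0.49 ± 0.32 in fetal liver Fr.B/C (SD, n = 4 each), give the order of the groups. Neighbouring stages of 1 tissue did not pass in bone marrow (-0.10 ± 0.13, adjusted p = 0.626) or fetal liver (-0.21 ± 0.13, adjusted p = 0.303).

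Fetal liver was 1.38-fold lower in Fr.A (-0.47 ± 0.13, adjusted p = 0.0140) and 1.49-fold lower in Fr.B/C (-0.58 ± 0.13, adjusted p = 0.00397). With array pairs averaged both calls were lost (adjusted p = 0.178 and 0.113), and median centring, between-array scaling or the scanner software's processed signals took the Fr.A call to adjusted p = 0.0567, 0.0536 and 0.0677. Inside fetal liver, arrays 1 and 2 of both fractions were scanned on 1 day and arrays 3 and 4 on another. The split of the Bach1 values there cannot be told apart from scan day. The erythroid marker list moved with that split too. Its mean level was 2.18, 2.09, 3.49 and 3.41 on Fr.A arrays 1 to 4 and 2.37, 2.20, 3.38 and 3.21 on Fr.B/C arrays. In bone marrow it ran from 0.935 to 1.47. Of 12 measured erythroid markers 10 were higher and 1 lower in fetal liver Fr.A, and 10 higher and none lower in Fr.B/C. The red cell gene Rhag was not well above background in either bone marrow fraction. The part of the erythroid markers in the Bach1 values was not tested.

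Among the partners and relatives of the BACH proteins, 5 of 8 measured genes had a lower level and none a higher level in the Fr.A of fetal liver, and in Fr.B/C 3 were lower and 1 higher. Among all genes 17.1% were lower and 12.2% higher at the Fr.A stage, and 14.8% lower and 13.9% higher at the Fr.B/C stage. The list's median difference was -0.46 for Fr.A and -0.07 for Fr.B/C, against -0.01 and 0.01 over all genes. Keap1, the sensor that marks NRF2 for degradation, was lower in both fractions (-1.16 ± 0.15, adjusted p = 2.27e-05, and -1.01 ± 0.15, adjusted p = 9.89e-05). Nfe2l2, which encodes NRF2 itself, the activator that competes with BACH1 for Maf sites, was lower by less (-0.44 ± 0.09, adjusted p = 0.00119, and -0.37 ± 0.09, adjusted p = 0.00485). With array pairs averaged 1 gene of the list passed as lower in each fraction.

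The small Maf gene Mafk passed as lower in fetal liver at both stages (-0.45 ± 0.14 each, adjusted p = 0.0209 and 0.0230) and as lower in Fr.B/C than in Fr.A in both tissues (-0.48 ± 0.14 each, adjusted p = 0.0136 in bone marrow and 0.0197 in fetal liver). These calls were near the threshold. The Fr.A tissue call was lost without bone marrow Fr.A array 3 (-0.38, adjusted p = 0.0701) or 4 (-0.42, adjusted p = 0.0578) or fetal liver Fr.A array 1 (-0.35, adjusted p = 0.0748). The Fr.B/C tissue call was lost without bone marrow Fr.B/C array 3 (-0.42, adjusted p = 0.0587) or 4 (-0.38, adjusted p = 0.0701) or fetal liver Fr.B/C array 1 (-0.36, adjusted p = 0.0767) or 2 (-0.38, adjusted p = 0.0737). The step was lost in bone marrow without Fr.B/C array 2 (-0.40, adjusted p = 0.0526). In fetal liver it was lost without Fr.A array 3 (-0.42, adjusted p = 0.0673) or 4 (-0.45, adjusted p = 0.0581) or Fr.B/C array 1 (-0.39, adjusted p = 0.0715) or 2 (-0.40, adjusted p = 0.0687). In bone marrow 5 of the 8 genes fell from Fr.A to Fr.B/C, Nfe2l1 (-0.80 ± 0.17, adjusted p = 0.00229) and Maff (-0.61 ± 0.15, adjusted p = 0.00453) among them, and none did with array pairs averaged. In fetal liver 1 fell, or 4 when replicate numbers were paired by a block. The main fit called 62.5% of the list at the bone marrow step and 12.5% at the fetal liver step, against 32.2% and 22.7% of all genes.

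Heme and antioxidant response genes, among them targets that BACH1 represses, parted in both directions. Of 16 measured genes 5 were higher and 4 lower in fetal liver Fr.A (median 0.31), and 3 higher and 3 lower in Fr.B/C (median 0.14). In either direction 56.2% and 37.5% passed, against 29.4% and 28.6% of all genes. Hmox1, the heme-degrading enzyme and best-known BACH1 target, was higher at both stages (0.66 ± 0.16, adjusted p = 0.00489, and 0.81 ± 0.16, adjusted p = 0.00120), and its Fr.B/C call was lost with median centring (0.54, adjusted p = 0.174). Fech, which inserts iron into protoporphyrin to make heme, was higher too (1.39 ± 0.30, adjusted p = 0.00241, and 1.17 ± 0.30, adjusted p = 0.00840). Both of its calls were lost with array pairs averaged (adjusted p = 0.0881 and 0.147). Gclc, the catalytic subunit of glutathione synthesis, was lower in fetal liver Fr.A (-0.58 ± 0.08, adjusted p = 8.26e-05) and rose at the step to Fr.B/C in bone marrow (0.54 ± 0.08, adjusted p = 0.000117) and fetal liver (0.88 ± 0.08, adjusted p = 1.19e-06). Srxn1, which repairs peroxiredoxins, was higher in fetal liver Fr.A on its brightest probe (0.83 ± 0.16, adjusted p = 0.00116), and its other probes gave 0.02 each and did not pass. The erythroid markers given for Bach1 were higher in fetal liver as well, and their part in these values was not tested.

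The plasma cell and myeloid regulators that BACH2 is known to hold back passed in both directions between tissues. In fetal liver, where Bach2 was lower, 3 of 9 measured genes were higher and 2 lower in Fr.A, and 1 was higher and 3 lower in Fr.B/C. In either direction 55.6% and 44.4% passed, against 29.4% and 28.6% of all genes. Irf4, which drives plasma cell and pre-B differentiation, was higher in both fractions of fetal liver (1.22 ± 0.09, adjusted p = 7.10e-08, and 0.54 ± 0.09, adjusted p = 0.000294). With median centring its Fr.B/C difference was 0.36 and not called (adjusted p = 0.251). Csf1r, the macrophage growth factor receptor, was higher in Fr.A (1.77 ± 0.13, adjusted p = 8.52e-08), while in Fr.B/C its difference was 0.19 ± 0.13 (adjusted p = 0.322). The other kept probes of Csf1r gave 0.58 and -0.01 in Fr.A.

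Cdkn1a, the cell cycle inhibitor p21, was lower in fetal liver at both stages (-2.11 ± 0.20, adjusted p = 1.18e-06, and -1.34 ± 0.20, adjusted p = 0.000131). From Fr.A to Fr.B/C 4 of the 9 genes fell and 1 rose in each tissue (55.6%, against 32.2% of all genes in bone marrow and 22.7% in fetal liver). The myeloid factor Cebpb fell by 2.31 ± 0.19 in bone marrow and 2.12 ± 0.19 in fetal liver (adjusted p = 2.22e-07 and 8.39e-07), and Id2, an inhibitor of E proteins, fell by 3.40 ± 0.21 and 2.53 ± 0.21 (adjusted p = 7.91e-09 and 2.62e-07). Myeloid markers, which share Csf1r with this list, moved with these steps: 5 of 12 fell in bone marrow and 8 of 12 in fetal liver. The myeloid list's mean level ran from 2.60 to 3.29 in bone marrow Fr.A, 1.91 to 2.44 in Fr.B/C, 2.11 to 2.66 in fetal liver Fr.A and 1.06 to 1.67 in Fr.B/C. Their part was not tested.

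Bcl6 was the 1 gene of the 4 whose step from Fr.A to Fr.B/C passed the test of a difference between the tissues, and that call was near the threshold. Levels in bone marrow Fr.A were -1.48, -1.47, -0.49 and -0.54, and in bone marrow Fr.B/C -0.28, -0.42, 0.46 and 0.69. In fetal liver they were -1.33, -1.30, -1.30 and -1.06 in Fr.A and -1.503, -1.41, -1.503 and -1.503 in Fr.B/C. Bone marrow Fr.B/C was above every other group, with no overlap, and the remaining groups overlapped or lay next to each other. Of all genes 29.6% did not overlap between tissues in Fr.B/C and 29.5% between the bone marrow fractions. Sample signals of the probe ran from 717.7 to 1347 (intensity) in bone marrow Fr.B/C and from 216.25 to 333.03 in fetal liver Fr.B/C. The order of means was bone marrow Fr.B/C (0.11 ± 0.55, SD, n = 4), bone marrow Fr.A (-0.995 ± 0.56), the fetal liver fractions Fr.A (-1.25 ± 0.13) and Fr.B/C (-1.48 ± 0.05). Within bone marrow, arrays 3 and 4 were above arrays 1 and 2 in both fractions, by about as much as the fractions differed.

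In bone marrow Bcl6 rose 2.15-fold (1.11 ± 0.26, adjusted p = 0.00339). The step was alike for all 4 replicate numbers, at 1.2001, 1.05, 0.94 and 1.23, and within the 3 scan days that held both fractions at 1.06, 0.94 and 1.23. A replicate block within tissue, which pairs the fractions of a number, gave an adjusted p of 4.08e-07. With array pairs averaged it was 0.0939, or 0.000586 with a term for each pair. In fetal liver the steps were -0.17, -0.11, -0.20 and -0.44, all downward (-0.23 ± 0.26, adjusted p = 0.604). The paired fit called this fall (adjusted p = 0.0494), array pairs averaged with a term for each pair did not (adjusted p = 0.250), and the fractions did not overlap, as for 24.2% of all genes.

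The interaction term for Bcl6 was -1.34 ± 0.36 (adjusted p = 0.0358). It was 1 of 4 genes with a lower step in fetal liver, against 3% of all genes (4.38% had a higher step there, and 7.38% passed in either direction). With the replicate block within tissue it was called at adjusted p = 2.34e-05, and the genes called went from 1637 to 3609. It was not called with array pairs averaged (adjusted p = 0.473), as a random block (0.0820), with median centring (0.174), between-array scaling (0.0715), processed signals (0.0621) or no filter (0.0545). Leaving out 1 array moved the value between -1.54 and -1.14. The call was lost without any of 11 arrays: bone marrow Fr.A 1 or 2 (-1.17 and -1.15), bone marrow Fr.B/C 3 or 4 (-1.201 and -1.14), fetal liver Fr.A 1, 3 or 4 (-1.36, -1.35 and -1.28) and fetal liver Fr.B/C 1, 2, 3 or 4 (-1.34, -1.35, -1.34 and -1.32), at adjusted p = 0.0530 to 0.0739. The direction was the same in every one of these fits.

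**Figure D2:**
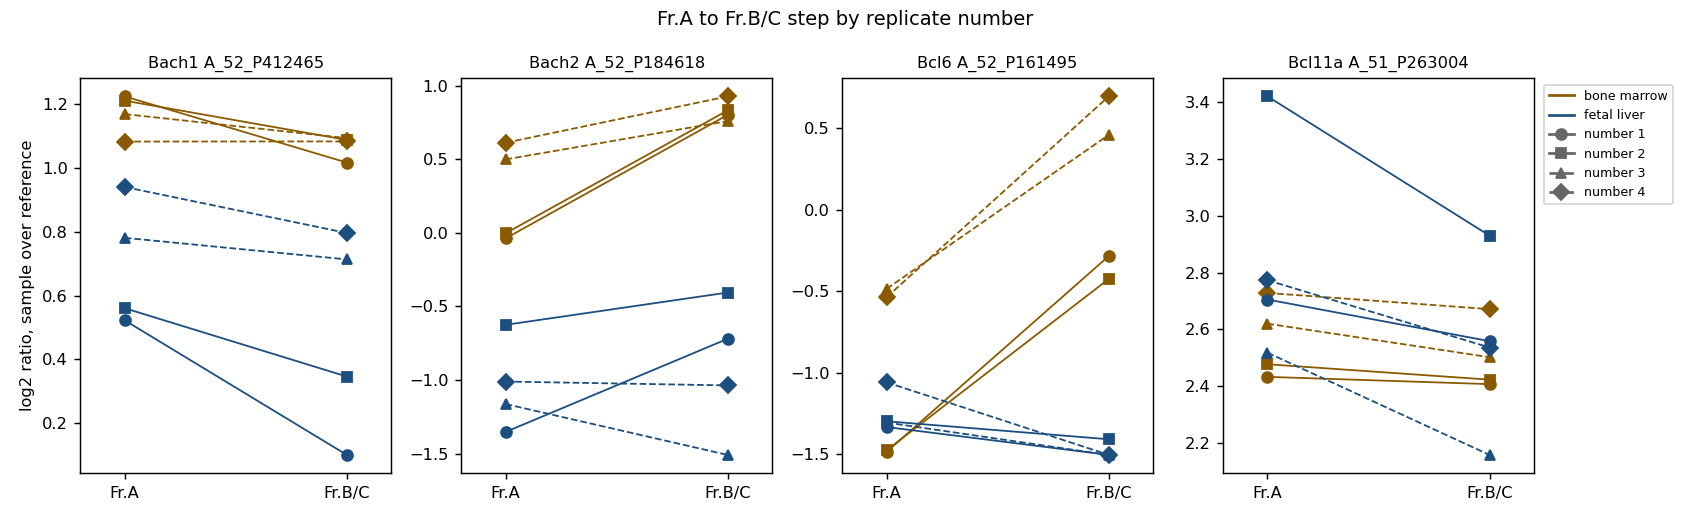
Log2 ratio of sample over reference (y axis, scaled separately in each panel) in Fr.A and Fr.B/C, with a line joining the arrays of the same replicate number in bone marrow (brown) and fetal liver (blue). Solid lines are numbers 1 and 2 and dashed lines numbers 3 and 4. All 4 Bcl6 lines rise in bone marrow, by 0.94 to 1.23, and fall in fetal liver, by 0.11 to 0.44.

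Between tissues Bcl6 was 3.01-fold lower in fetal liver Fr.B/C (-1.59 ± 0.26, adjusted p = 0.000255), and it was still called with array pairs averaged (adjusted p = 0.0413). In Fr.A the difference was -0.25 ± 0.26 (adjusted p = 0.519), and without 1 array it ran from -0.44 to -0.06. The myeloid marker list moved with the split inside bone marrow, at 2.60, 2.70, 3.29 and 2.84 on Fr.A arrays 1 to 4 and 1.91, 1.92, 2.44 and 2.40 on Fr.B/C arrays. The part of these markers in the Bcl6 values was not tested.

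**Figure D3:**
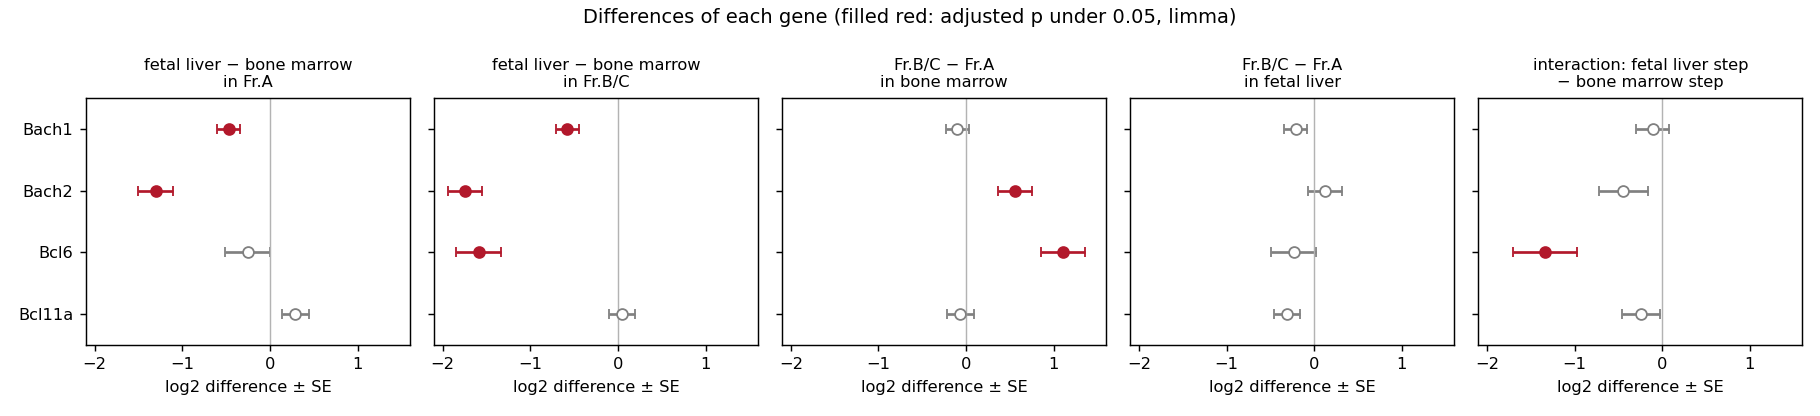
Log2 difference ± SE (x axis) of each gene in the 4 comparisons and for the interaction, each gene on its brightest probe, from the limma fit over 16 arrays. Filled red marks have an adjusted p under 0.05: Bach1 and Bach2 in both tissue comparisons, Bcl6 in Fr.B/C, the bone marrow steps of Bach2 and Bcl6, and the interaction of Bcl6 (-1.34).

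Genes that BCL6 is known to repress were more often lower than higher in fetal liver. Of 17 measured targets 9 were lower and 2 higher in fetal liver Fr.A, and 9 lower and 3 higher in Fr.B/C, where 17.1% and 14.8% of all genes were lower. The medians were -0.54 and -0.35, against -0.01 and 0.01 over all genes. Some other markers were lower there too. In Fr.A 5 of 8 NK and 5 of 9 T-lineage markers were lower and none higher. In Fr.B/C 2 of 8 NK markers were lower and none higher, and 4 of 9 T-lineage markers lower and 1 higher. Early B-lineage markers were lower for 5 of 19 in Fr.A and 9 of 19 in Fr.B/C, with 1 higher in each. Others did not go that way: 10 of 12 erythroid markers were higher in each fraction (1 lower in Fr.A). Of 12 plasmacytoid dendritic cell markers 4 were higher and 3 lower in Fr.A, and 2 higher and 4 lower in Fr.B/C. The T-lineage list's mean level ran from -2.32 to -2.11 in bone marrow Fr.A and from -2.92 to -2.67 in that fraction of fetal liver. The part of these markers was not tested. Ccnd2, a G1 cyclin, was lower at both stages (-1.33 ± 0.12, adjusted p = 1.04e-06, and -1.80 ± 0.12, adjusted p = 3.41e-08). The activation marker Cd69 was lower in Fr.B/C (-1.45 ± 0.15, adjusted p = 2.42e-06). Irf4 and Cdkn1a, given with the BACH2-linked genes, belong to this list as well.

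At the step to Fr.B/C 8 of the 17 targets fell and 3 rose in bone marrow (median -0.32), where Bcl6 rose, and 8 fell and 2 rose in fetal liver (median -0.33), where the Bcl6 difference was -0.23. In either direction 64.7% and 58.8% passed, against 32.2% and 22.7% of all genes. Bcl2, the survival gene, fell by 3.80 ± 0.16 in bone marrow and 3.12 ± 0.16 in fetal liver (adjusted p = 8.96e-11 and 1.08e-09). Ccr6, a chemokine receptor, fell by 2.63 ± 0.17 in bone marrow and was lower by less in fetal liver (-0.58 ± 0.17, adjusted p = 0.0194), and its steps differed (interaction 2.06 ± 0.24, adjusted p = 6.93e-05). S1pr1, the receptor for the egress signal sphingosine 1-phosphate, was lower in fetal liver Fr.B/C (-1.24 ± 0.13, adjusted p = 3.93e-06), and its difference at the step was 0.71 ± 0.13 in bone marrow (adjusted p = 0.000579) and 0.00 ± 0.13 in fetal liver (adjusted p = 0.988). NK and plasmacytoid dendritic cell markers also fell at the step, 6 of 8 and 8 of 12 in bone marrow and 3 of 8 and 8 of 12 in fetal liver. In each tissue 1 plasmacytoid marker rose, and no erythroid marker passed in either direction. The plasmacytoid list's mean level went from between 0.516 and 0.705 to between -0.407 and -0.221 in bone marrow and from between 0.857 and 0.918 to between -0.693 and -0.394 in fetal liver. The NK list's went from between 0.403 and 0.644 to between -0.693 and -0.531 and from between -0.465 and -0.279 to between -1.30 and -1.08. Ncr1 was not well above background outside bone marrow Fr.A, nor Siglech in either Fr.B/C group, Klrd1 and Tlr7 in fetal liver Fr.B/C. Their part in these falls was not tested.

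Corepressor subunits used by BCL6 and BCL11A passed at about the share of all genes or below it, apart from more rises at the fetal liver step. Of 27 measured subunits 6 were lower and 1 higher in fetal liver Fr.A, and 4 lower and 1 higher in Fr.B/C, which is 25.9% and 18.5% in either direction, against 29.4% and 28.6% of all genes. At the step 5 rose and 3 fell in bone marrow (29.6%, against 32.2% of all genes), and 6 rose and 1 fell in fetal liver (25.9%, against 22.7%). At the fetal liver step none rose and 1 fell with array pairs averaged. The list's medians between tissues were -0.05 and -0.08. Mta3, the NuRD subunit through which BCL6 acts in germinal centre cells, fell in every comparison: by 0.94 ± 0.10 and 1.41 ± 0.10 in fetal liver against bone marrow, and by 1.11 ± 0.10 and 1.58 ± 0.10 from Fr.A to Fr.B/C in bone marrow and fetal liver (adjusted p = 5.42e-06, 6.56e-08, 6.25e-07 and 1.86e-08). Rcor1, the CoREST scaffold, was lower in fetal liver at both stages (-0.68 ± 0.09, adjusted p = 6.03e-05, and -0.53 ± 0.09, adjusted p = 0.000622), the Fr.B/C call being lost with array pairs averaged (adjusted p = 0.0599).

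The direct partners of BCL6 had probes that disagreed. Bcor was lower in fetal liver on its brightest probe (-0.54 ± 0.10, adjusted p = 0.000825, in Fr.A and -0.58 ± 0.10, adjusted p = 0.000554, in Fr.B/C), but another probe was higher by 0.34 and 0.63. Ncor1 was lower on its brightest probe (-0.74 ± 0.13, adjusted p = 0.000509, and -0.53 ± 0.13, adjusted p = 0.00699), while another of its 4 probes was higher in Fr.B/C by 0.66. No direction is given for these genes.

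Bcl11a was above the reference on all 16 arrays and differed little between groups. The brightest probe read 2.43, 2.48, 2.62 and 2.73 in bone marrow Fr.A and 2.41, 2.42, 2.50 and 2.67 in bone marrow Fr.B/C. In fetal liver it read 2.71, 3.42, 2.52 and 2.77 in Fr.A and 2.56, 2.93, 2.16 and 2.54 in Fr.B/C. All groups overlapped between tissues. The order of means was fetal liver Fr.A (2.85 ± 0.39, SD, n = 4), bone marrow Fr.A (2.56 ± 0.14), fetal liver Fr.B/C (2.55 ± 0.32) and bone marrow Fr.B/C (2.50 ± 0.12), and no neighbours differed beyond their spread.

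Its tissue differences were 0.29 ± 0.15 in Fr.A (adjusted p = 0.178) and 0.04 ± 0.15 in Fr.B/C (adjusted p = 0.859), and the bone marrow step was -0.06 ± 0.15 (adjusted p = 0.806). In fetal liver all 4 replicate numbers gave a lower level in Fr.B/C, by 0.15, 0.49, 0.36 and 0.24. The unpaired fit did not call this step (-0.31 ± 0.15, adjusted p = 0.174) and the replicate block within tissue did (adjusted p = 0.00774), but array pairs averaged with a term for each pair did not (adjusted p = 0.113). The other Bcl11a probe, for the same transcript, read 1.98, 2.10, 2.30 and 2.35 in bone marrow Fr.A and 1.81, 1.83, 2.31 and 2.19 in Fr.B/C. In fetal liver it read 2.84, 2.21, 2.53 and 2.30 in Fr.A and 2.42, 2.20, 2.85 and 2.42 in Fr.B/C. It gave no fall there (0.00 ± 0.15, adjusted p = 0.991), and a higher level in fetal liver Fr.B/C than in bone marrow (0.44 ± 0.15, adjusted p = 0.0429). The direction of the fetal liver step therefore depends on the probe.

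Of the lymphoid genes linked to BCL11A 8 were measured, and 2 were lower in fetal liver Fr.A and 4 lower and 1 higher in Fr.B/C, and at the step 2 rose and 3 fell in bone marrow and 2 rose and 4 fell in fetal liver. In either direction that is 25.0%, 62.5%, 62.5% and 75.0%, against 29.4%, 28.6%, 32.2% and 22.7% of all genes. Ebf1, which specifies the B lineage, was lower in fetal liver (-0.56 ± 0.12, adjusted p = 0.00304, and -0.98 ± 0.12, adjusted p = 2.58e-05). Flt3, a cytokine receptor of early progenitors, fell at the step by 2.96 ± 0.21 in bone marrow and 3.23 ± 0.21 in fetal liver (adjusted p = 3.58e-08 and 1.93e-08). The survival gene Bcl2l1 rose by 1.196 ± 0.16 and 1.40 ± 0.16 (adjusted p = 3.54e-05 and 1.01e-05) on its brightest probe, and its other probes gave 0.16 and 0.29 in bone marrow, which did not pass. The Ebf1 call in Fr.A was lost with array pairs averaged (adjusted p = 0.0725).

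Embryonic globins, which BCL11A silences, were read by 2 measured genes. Hbb-bh1 was higher in fetal liver at both stages (adjusted p = 0.000927 and 0.00754), but only 1 bone marrow Fr.A array and no bone marrow Fr.B/C array read it well above background, so no size is given. Hbb-y was 0.66 ± 0.29 higher in Fr.A (adjusted p = 0.108) and passed in Fr.B/C (0.86 ± 0.29, adjusted p = 0.0369). No globin call held with array pairs averaged, and the Hbb-y call was lost without bone marrow Fr.B/C array 1 (0.88, adjusted p = 0.0697), 2 (0.82, adjusted p = 0.0893), 3 (0.89, adjusted p = 0.0577) or 4 (0.86, adjusted p = 0.0680) or fetal liver Fr.B/C array 3 (0.66, adjusted p = 0.128) or 4 (0.70, adjusted p = 0.127). The erythroid markers were higher in fetal liver too, and their part was not tested.

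**Figure D4:**
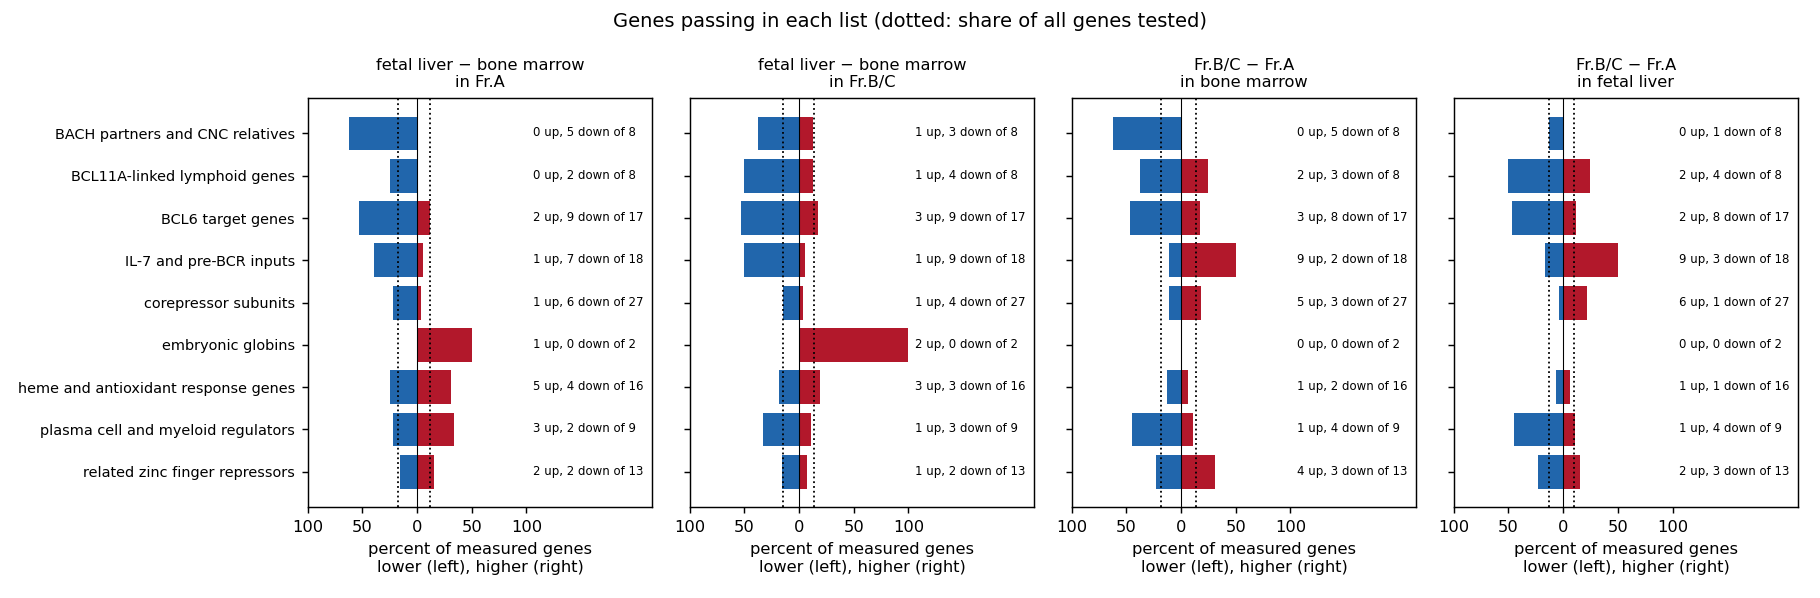
Percent of the measured genes of each list that passed as higher (red, right) or lower (blue, left) in the 4 comparisons, with counts beside each bar. Dotted lines give the share of all genes tested that passed in that direction, from 9.96% to 18.7%. At the fetal liver step 6 of 27 corepressor subunits are higher, past the dotted line at 9.96%, and the bars of the interleukin 7 and pre-BCR list lie to the lower side between tissues (7 and 9 of 18 lower) and to the higher side at the steps (9 of 18 higher in each).

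Related zinc finger repressors included the nearest relative of Bcl6. Of 13 measured genes 2 were higher and 2 lower in fetal liver Fr.A and 1 higher and 2 lower in Fr.B/C, and 4 rose and 3 fell at the bone marrow step and 2 rose and 3 fell at the fetal liver step. In either direction that is 30.8%, 23.1%, 53.8% and 38.5%, against 29.4%, 28.6%, 32.2% and 22.7% of all genes. Bcl6b, the Bcl6 paralogue, rose at the step by 1.54 ± 0.13 in bone marrow and 0.83 ± 0.13 in fetal liver (adjusted p = 2.07e-07 and 0.000182). In fetal liver Fr.A it was well above background on 2 of 4 arrays, so that step starts near background. It was lower in fetal liver Fr.B/C (-1.002 ± 0.13, adjusted p = 3.10e-05). Zbtb20 was lower in fetal liver at both stages (-1.66 ± 0.10, adjusted p = 5.79e-09, and -1.10 ± 0.10, adjusted p = 5.02e-07). Ikzf1, the Ikaros gene, fell at the step by 1.65 ± 0.21 and 1.40 ± 0.21 (adjusted p = 1.55e-05 and 0.000116), and Ikzf3, its relative Aiolos, rose by 1.49 ± 0.13 and 1.30 ± 0.13 (adjusted p = 4.17e-07 and 2.51e-06). The other kept Ikzf3 probe gave 0.21 and 0.02 and did not pass.

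The interleukin 7 and pre-B receptor genes, inputs that set Bcl6 in pre-B cells, were lower in fetal liver for 7 of 18 measured genes at the Fr.A stage and 9 at the Fr.B/C stage, with 1 higher in each (medians -0.24 and -0.54), where 17.1% and 14.8% of all genes were lower. Early B-lineage markers were lower as well, 5 and 9 of 19 with 1 higher in each, and their part was not tested. The marker list shares Il7r, Vpreb1, Cd79a, Cd79b and Blnk with this list, so the counts are not separate. Vpreb1 and Cd79b were saturated on all Fr.B/C arrays. Cish, an inhibitor that STAT5 induces, was lower in fetal liver Fr.A (-2.12 ± 0.18, adjusted p = 4.23e-07), and rose at the fetal liver step (1.61 ± 0.18, adjusted p = 7.73e-06), where in bone marrow its difference was -0.01 ± 0.18 (adjusted p = 0.970). Its steps differed (interaction 1.62 ± 0.26, adjusted p = 0.00116). Blnk, the adaptor below the pre-B receptor, was lower in fetal liver at both stages (-1.998 ± 0.18, adjusted p = 5.20e-07, and -1.41 ± 0.18, adjusted p = 2.23e-05). At the step 9 of the 18 rose in each tissue, among them the surrogate light chain gene Vpreb2 (2.59 ± 0.17 in bone marrow and 1.78 ± 0.17 in fetal liver; adjusted p = 1.17e-08 and 9.70e-07) and the receptor subunit Cd79a (1.97 ± 0.15 in bone marrow, adjusted p = 9.00e-08). Of the 19 early B-lineage markers 10 rose in each tissue, and 3 fell in bone marrow and 5 in fetal liver. Among all genes 13.5% rose in bone marrow and 9.96% in fetal liver.

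Over the 16 arrays, which share groups and the pair structure, the levels of Bach2 and Bcl6 went together (Pearson r = 0.798, dye effect removed), those of Bach1 and Bach2 less so (0.610), and Bcl11a went with none of them (-0.441 with Bach1, -0.165 with Bach2 and -0.0961 with Bcl6). Of 13147 genes with a plain symbol, those with levels most like Bach2 were Ifi209 (r = 0.971), Zdhhc13 (0.964), Zbp1 (0.961), H2-D4 (0.955) and Insl6 (0.953). For Bach1 they were Serpinf1 (0.964), Isg15 (0.957), Dkkl1 (0.956), Hp (0.953) and Wfdc21 (0.933). For Bcl6 they were S1pr1 (0.939), Il18bp (0.937), Sulf2 (0.928), Prss34 (0.928) and Ifnlr1 (0.917). S1pr1 is on the list of genes that BCL6 is known to repress, yet its level rose and fell with that of Bcl6. That list was chosen with earlier results of these data known. For Bcl11a they were Tent2 (0.902), Synrg (0.882), Hdac1 (0.881), Adk (0.877) and Armc1 (0.862). These values describe 16 arrays of 4 groups and carry no test.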

How the data were processed

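The 16 arrays were 2-colour Agilent arrays, and per the labels each of 4 groups held 4 arrays with the sample in Cy5 on arrays 1 and 3 and in Cy3 on arrays 2 and 4. Per the file headers the deposited spot intensity values came from Feature Extraction 8.5.1.1. The submitters' processing notes name limma. A deposited table of log2 ratios (sample over reference) served as an alternative but the method behind it is not given in the sources here.

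Here intensities were background-corrected by normexp (offset 50) and normalized by loess within each array, with control spots at weight 0, outlier spots left out and saturated spots kept. Ratios were turned to sample over reference. A probe was kept if well above background in 3 of 4 arrays of any group and usable on 12 arrays (27521 of 41174), and each gene took its brightest kept probe. Group means and a dye term were fitted with limma 3.58.1 in R 4.3.3 (lmFit, eBayes, Benjamini-Hochberg, threshold 0.05, 11 residual degrees of freedom). The script was tested on simulated data. The number of arrays and the deviation of arrays in pairs limit precision. P-values measure the spread between arrays, which may be technical in part, since the labels do not say whether arrays 1 and 2, or 3 and 4, hold separate sorts.

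The replicate block paired the fractions of a tissue by number. Deviations of Fr.A and Fr.B/C arrays of 1 number correlated at 0.249 to 0.520 in all 8 pairs (median 0.403). Arrays of another number in the same array pair correlated nearly as much, at 0.212 to 0.424 (median 0.309). Arrays of the other array pair gave a median of -0.378, part of which is fixed because deviations within a group cancel out. These values do not set replicate number clearly apart from array pair. Genes named from a list were picked from the up to 4 that passed with the smallest adjusted p in a comparison, and their values in other comparisons are given beside. Lists were counted over measured genes. The genes and lists were chosen with earlier results of these data known. The motifs were chosen after the values were seen. Some listed genes are counted but not reported here by name.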

Additional observations from a re-analysis of the deposited data

Results flagged for a closer look

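Of 24 groups of 4 arrays tested with Dixon's criterion, 3 held an array apart from the rest, where chance marks about 1 in 20. Bcl6 in fetal liver Fr.A had array 4 above the others at -1.06, and in fetal liver Fr.B/C array 2 above the others at -1.41. Bach1 in bone marrow Fr.B/C had array 1 below the others at 1.02. These groups have narrow spreads.

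The step from Fr.A to Fr.B/C differed between fetal liver and bone marrow by the limma interaction term for Bcl6 (-1.34, adjusted p = 0.0358) and for 10 named genes of the lists. It was more negative in fetal liver for Csf1r (-1.58), Irf8 (-1.12), Il2rg (-0.88), Bcl6b (-0.71), S1pr1 (-0.70), Irf4 (-0.68) and the myeloid and B-cell factor Spi1 (-0.67). It was more positive for Ccr6 (2.06), Cish (1.62) and Zbtb20 (0.55). The other Csf1r probes gave -0.51 and 0.06. Bcl6b was well above background on 2 of 4 fetal liver Fr.A arrays, so its step there starts near background.

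Without 1 array the S1pr1 call was lost for bone marrow Fr.A 1 or 2, bone marrow Fr.B/C 3 or 4, fetal liver Fr.A 1, 3 or 4 and fetal liver Fr.B/C 3 or 4 (-0.71 to -0.59, adjusted p = 0.0515 to 0.0686). The Bcl6b call was lost without bone marrow Fr.B/C 3 or 4, fetal liver Fr.A 1 or 3 or fetal liver Fr.B/C 1 or 2 (-0.70 to -0.63, adjusted p = 0.0521 to 0.0572). The Zbtb20 call was lost without bone marrow Fr.A 3 (0.49, adjusted p = 0.0503) or fetal liver Fr.B/C 4 (0.52, adjusted p = 0.0520).

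Other settings changed more. Of these 10 interaction calls 8 were lost with array pairs averaged, and Ccr6 and Csf1r were kept. With pairs as a random block the calls of Irf4 (adjusted p = 0.0696), Spi1 (adjusted p = 0.0800), S1pr1 (adjusted p = 0.137), Bcl6b (adjusted p = 0.185) and Zbtb20 (adjusted p = 0.242) were lost. With processed signals Bcl6b was -0.225 (adjusted p = 0.819), Zbtb20 0.174 (adjusted p = 0.758) and S1pr1 -0.73 (adjusted p = 0.157), and in the deposited table they were -0.76 (adjusted p = 0.123), 0.302 (adjusted p = 0.476) and -0.69 (adjusted p = 0.136). With median centring Irf4, Irf8, Il2rg, S1pr1, Spi1 and Zbtb20 were not called, and with scaling Irf4, Bcl6b, S1pr1 and Zbtb20 were not. Without background subtraction Bcl6b was not called (adjusted p = 0.0610).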

How the results depend on the processing

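Over 637 alternative values for the 4 genes, 582 kept their direction and side of the threshold, 35 lost a call, 5 gained one and 15 changed sign, and of 3800 for listed genes 3602 were kept and 198 lost a call. With array pairs averaged, 47 of 121 calls of named listed genes were lost. With 1 array left out, 57 such losses fell on 12 genes. The cause of these changes was not tested, and averaging leaves fewer samples.

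With array pairs averaged, Bach1 gave -0.47 (Fr.A) and -0.58 (Fr.B/C) between tissues, the bone marrow steps were 0.56 (Bach2) and 1.11 (Bcl6), and the Bcl6 interaction was -1.34, none called. Bach1 in Fr.A was not called with processed signals (-0.46), median centring (-0.57) or scaling (-0.41). The Bach2 bone marrow step was not called with median centring (0.72), the deposited table (0.53), no filter (0.56), averaged pairs with a pair term (0.56) or pairs as a random block (0.56). The Bcl6 interaction was not called with processed signals (-1.52), median centring (-1.45), scaling (-1.34), no filter (-1.34) or the random block (-1.34). With the replicate block within tissue or scan day as a fixed block, the fetal liver steps of Bcl6 (-0.23) and Bcl11a (-0.31) were called; the block changed no other call of the 4 genes.

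Median centring and scaling turned Bcl11a between tissues in Fr.B/C (-0.0174 and -0.0666), the bone marrow step of Bach1 (0.0119 and 0.0182) and that of Bcl11a (0.0819 and 0.21), none called. The other Bcl11a probe gave 0.44 in Fr.B/C (called), 0.0033 for the fetal liver step and 0.15 for the interaction.

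With 1 array left out, Bach1 ran from -0.55 to -0.41 (Fr.A) and -0.68 to -0.45 (Fr.B/C), the Bach2 bone marrow step from 0.42 to 0.69 and its fetal liver step from -0.0204 to 0.29, and the Bcl6 interaction from -1.54 to -1.14. The Bach1 interaction ran from -0.21 to 0.0196, the Bcl11a bone marrow step from -0.14 to 0.0114 and Bcl11a in Fr.B/C from -0.0484 to 0.14.

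Genes called numbered 6512 in Fr.A, against 3945 (random block), 2474 (averaged) and 4120 (median centring). In Fr.B/C they were 6353, against 3613 and 1979 for the random block and averaged pairs. The bone marrow step gave 7143, against 4602, 3314 and 4164 (median centring), and the fetal liver step 5033, against 2996, 1806 and 2697. The interaction gave 1637, against 498 (random block), 44 (averaged), 376 (averaged with pair term), 429 (median centring), 977 (processed signals), 922 (scaling), 2637 (replicate block across tissues), 3609 (replicate block within tissue), 3298 (scan day fixed) and 2993 (scan day random).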
